A study of Homo sapiens with 4 samples.

Results

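SR proteins and heterogeneous nuclear ribonucleoproteins (hnRNPs) are the RNA-binding proteins that decide where the spliceosome cuts a transcript. The set described here holds 41 genes, listed by name with no rule on their values, although earlier results of these data were known when the list was made. It covers 12 SR proteins, 25 hnRNPs with their relatives of the PTB and PCBP families, and 4 proteins that read the 3' splice site, and all 41 were found by symbol among the 23622 genes deposited. RNA was sequenced from MV4-11 cells, an established human acute myeloid leukemia line with a rearranged KMT2A gene. The NC group (2 libraries) is labelled as untreated, while the study's methods and the column names describe a control hairpin. The sh-IRF1 group (2 libraries) carried a hairpin against IRF1, a transcription factor of the interferon response. According to the study's methods, the hairpins were delivered by lentivirus from pLKO.1 and the cells were selected with puromycin. The sources used here do not say which IRF1 hairpin each library carried, nor whether the libraries came from separate cultures, so p-values measure only the spread between these libraries, which may be technical.

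SR proteins carry RNA recognition motifs and a tail of alternating arginine and serine residues. They usually bind exons and recruit the splicing machinery to nearby splice sites. Many hnRNPs coat nascent transcripts and mask splice sites, so that inclusion of an exon often depends on the balance between both families. Many of these genes limit their own expression by splicing in an exon that marks the transcript for decay. In myeloid neoplasms SRSF2, SF3B1, U2AF1 and ZRSR2 are recurrently mutated. The values used here are counts per gene and do not separate the transcripts of a gene.

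Most of the set was lower in the sh-IRF1 libraries, by a modest amount. Of the 41 genes, 32 (78.0%) were lower and 2 (4.88%) were higher at an adjusted p under 0.05 from limma. Over all 14120 genes tested, 21.9% were lower and 20.3% were higher by the same rule. Because 37 of the 41 genes had a mean of at least 1000 normalized counts (reads divided by the authors' size factor for each library), genes of that level are the closer background. Among these 4227 genes, 38.6% were lower and 28.1% were higher, against 30 (81.1%) lower and 2 (5.41%) higher of the 37. The median log2 fold change, sh-IRF1 minus NC on log2(normalized count + 1), was -0.24 over the 41 genes, -0.0019 over all genes tested and -0.041 over genes of that level.

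Few of these changes were large. A log2 fold change below -0.5 was reached by 5 of the 41 genes (12.2%), namely SRSF1, SRSF2, HNRNPDL, HNRNPH2 and SYNCRIP, and one above 0.5 with an adjusted p under 0.05 by 0 of them. Over all genes tested these shares were 7.56% and 8.27%, and 6.55% of genes with a mean of at least 1000 passed the lower limit. The libraries of both groups did not overlap, with sh-IRF1 below NC, for 33 of the 41 genes (80.5%), beside 35.0% of all genes tested and 47.7% of those with a mean of at least 1000. For PTBP1, PTBP3, HNRNPL and U2AF2 both sh-IRF1 libraries lay above both NC libraries (9.76%, beside 34.2% of all genes tested), and for SRSF9, PCBP1, ZRSR2 and U2AF1 the groups overlapped. In a bulk culture, fewer cells with a transcript and less of it per cell cannot be told apart.

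**Figure D1:**
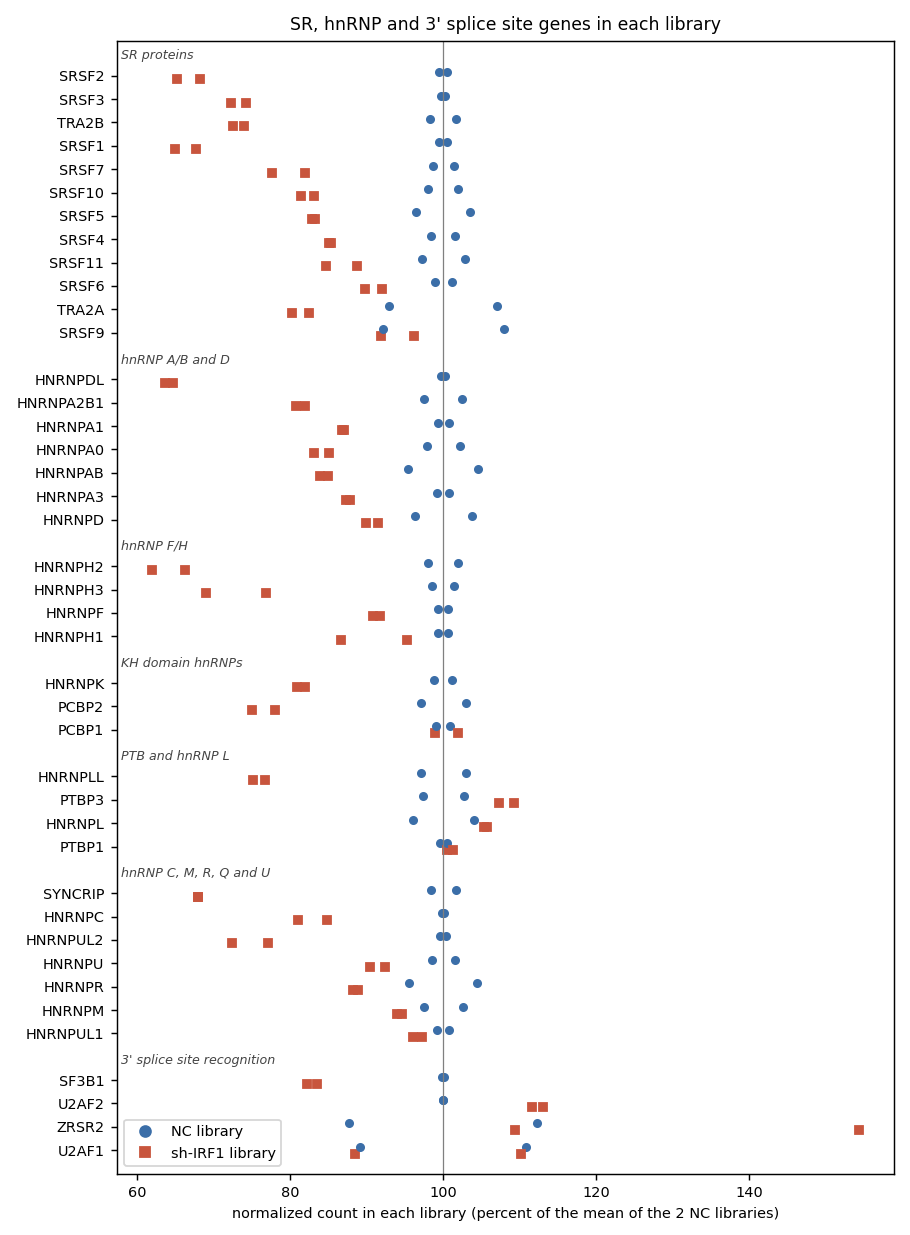
Normalized count of each of the 41 genes in each of the 4 libraries, as a percent of the mean of the 2 NC libraries, grouped by role. Circles are NC libraries and squares are sh-IRF1 libraries, and the squares lie left of the circles for 33 genes.

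The promoters of the set were searched for the E-box CACGTG, a palindrome bound by MYC with its partner MAX, for the interferon regulatory factor element (GAAA, any 2 bases, GAAA) and for the ETS element CCGGAAGT, on both strands. RefSeq promoters (GRCh38.p14, from 250 bases before to 50 after the start) matched 38 of the 41 genes, all but SRSF2, HNRNPA1 and TRA2A. The E-box letters stood in 9 of the 38 (23.7%), against 7.44% of all 27305 promoters and 10.3% of the 10131 promoters of tested genes. The interferon regulatory factor element was in 3 of 38 (7.89%, against 3.65% and 2.90%), in HNRNPD, HNRNPU and ZRSR2. The ETS element was in 5 of 38 (13.2%, against 4.44% and 9.26%), in HNRNPD, SRSF4, SRSF5, U2AF2 and PCBP1. No share was computed for promoters of genes with a mean of at least 1000, the closer background for this set. These shares are descriptions, and a match is not evidence of binding.

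Of the 9 genes with an E-box, 8 were lower and HNRNPUL1 had no call, beside 21 lower of the 29 genes whose promoter lacked these letters, a difference that was not tested. Of the 9, 3 genes, HNRNPDL, HNRNPH2 and SYNCRIP, are among the 5 genes with a log2 fold change below -0.5. The smallest changes of the 9 were those of HNRNPUL1 (-0.050), HNRNPM (-0.085) and HNRNPD (-0.14). SRSF2, also among the 5, had no promoter to search. Among all tested genes the E-box letters were about as frequent in promoters of lowered genes (10.6% of 2396) as of raised genes (11.1% of 2224) and of genes with no call (9.94% of 5511). MYC itself had 14198 and 14561 normalized counts in NC and 7380 and 7348 in sh-IRF1 (adjusted p = 1.03e-29 from limma), and its part in the results below was not tested. Among the sequences searched, the E-box has the fewest fixed letters and stood in the largest number of these promoters, so its windows are shown. Each is given 5' to 3' on the strand of the gene with CACGTG in capitals, and its first base lies between -156 (HNRNPDL) and 23 (HNRNPUL1) relative to the start. The HNRNPH2 promoter holds 2 of them.
HNRNPA3, chr2:177212711-177212740: cggaaaacgcgtCACGTGacgactggcccc
HNRNPD, chr4:82374001-82374030, minus strand: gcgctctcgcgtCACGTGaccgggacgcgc
HNRNPDL, chr4:82430364-82430393, minus strand: agaggcccggggCACGTGcagaaaggagcc
HNRNPH2, chrX:101408168-101408197: ccgagagttgctCACGTGaccgagatctca
HNRNPH2, chrX:101408201-101408230: gacgtaggcgctCACGTGattactcgctta
HNRNPH3, chr10:68331631-68331660: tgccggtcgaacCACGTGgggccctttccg
HNRNPM, chr19:8444921-8444950: gttgcgtcgggtCACGTGggcgcgcaggcg
HNRNPUL1, chr19:41262568-41262597: aacctctgggccCACGTGagtgtctgtccc
SF3B1, chr2:197435119-197435148, minus strand: tggcagttctgtCACGTGtcacccgacgga
SYNCRIP, chr6:85643851-85643880, minus strand: cgccccgggggaCACGTGcgcctgcagctt

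Among the 12 SR proteins, 11 were lower, 0 were higher and SRSF9 had no call, with a median log2 fold change of -0.29. SRSF1 (ENSG00000136450, chr17:58000919-58007346 in GENCODE 44 on GRCh38) is the founding SR protein, which activates splicing through purine-rich exon elements and is known as an oncoprotein. It had 2354 and 2331 normalized counts in the NC libraries and 1587 and 1523 in the sh-IRF1 libraries. The groups did not overlap, and 66.4% of the NC level was left (log2 fold change -0.59, SE 0.0521, adjusted p = 2.38e-13 from limma). SRSF2 (ENSG00000161547, chr17:76734115-76737333) binds both G-rich and C-rich exon elements. Its levels of 4725 and 4778 in NC stood against 3242 and 3099.5 in sh-IRF1, again without overlap, or 66.7% of the NC level (log2 fold change -0.58, SE 0.0402, adjusted p = 7.81e-17). For both genes part of the exonic sequence lies under other annotated genes, 35.1% for SRSF1 and 27.7% for SRSF2. The gene that overlaps SRSF2 is MFSD11, on the opposite strand, whose counts came to 6.42% of those of SRSF2.

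SRSF3, the smallest SR protein, also escorts mRNA out of the nucleus. It had 9628 and 9678 normalized counts in NC and 7166 and 6975 in sh-IRF1, and 73.2% of the NC level was left (log2 fold change -0.45, SE 0.0316, adjusted p = 1.65e-16). TRA2B, which binds GAA-rich exon enhancers, fell to the same 73.2%, from 5540.3 and 5732 to 4086 and 4170.5 (log2 fold change -0.45, adjusted p = 4.05e-14). SRSF7, an export factor like SRSF3, fell from 3753 and 3652 to 3036 and 2875, which is 79.8% of the NC level. Neither group of libraries overlapped with the other for these genes, and within each group the libraries stood close together.

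SRSF10, a splicing repressor when it loses its phosphates, fell to 82.3% of the NC level, from 3670.3 and 3818 to 3113 and 3049.8. SRSF5 fell to 83.0% and SRSF11 to 86.7%. SRSF4, the longest classical SR protein, had 2004 and 1942 normalized counts in NC and 1683 and 1679 in sh-IRF1 (85.2%, adjusted p = 0.000341). These changes were smaller than the group median, but in each case the sh-IRF1 libraries lay below both NC libraries.

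SRSF6 and TRA2A were called less firmly. SRSF6 had 5599 and 5478 normalized counts in NC and 5098 and 4971 in sh-IRF1 (90.9%, adjusted p = 0.00165), and without sh-IRF1 replicate 2 the adjusted p was 0.0534. TRA2A, the sister gene of TRA2B, had 1000.1 and 869 in NC and 750.01 and 771 in sh-IRF1 (81.4%, adjusted p = 0.00178), and 0.0933 without NC replicate 1. The NC libraries of TRA2A stood further apart than those of most other SR genes. SRSF9, a short SR protein close in sequence to SRSF1, overlapped between the groups, with 1863 and 1590.0 in NC against 1587 and 1661 in sh-IRF1. Its log2 fold change was -0.084 (95% interval -0.21 to 0.037, adjusted p = 0.272). Without NC replicate 2 it was -0.20 (adjusted p = 0.0107). GATC, on the opposite strand, covers 43.6% of the SRSF9 exons.

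**Figure D2:**
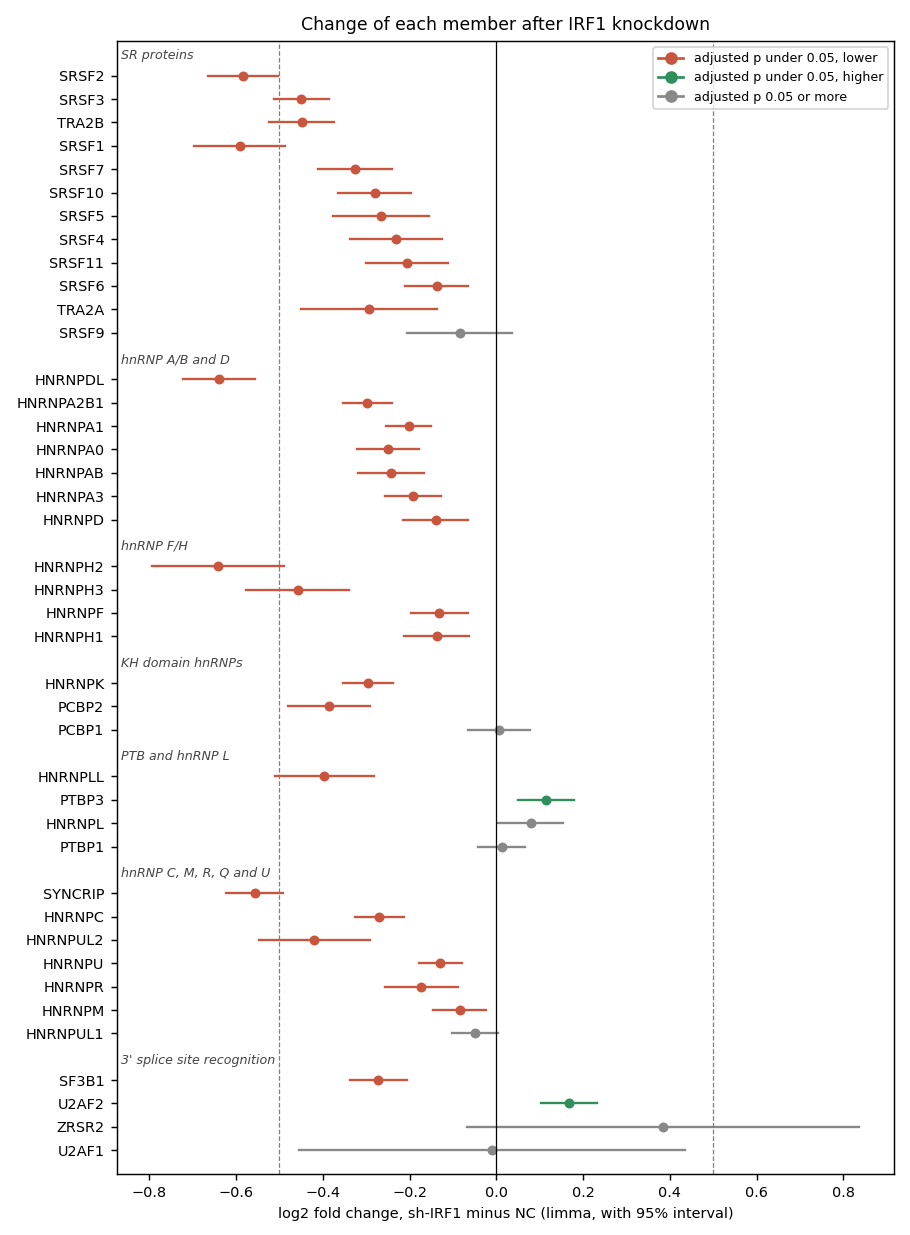
Log2 fold change, sh-IRF1 minus NC, of each of the 41 genes with its 95% interval from limma, grouped by role, with dashed lines at -0.5 and 0.5. Of the points, 32 are marked as lower, 2 (PTBP3 and U2AF2) as higher and 7 as not called.

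The hnRNP A/B and D group was lower throughout, with 7 of 7 genes called and a median log2 fold change of -0.24. These proteins pair RNA recognition motifs with a glycine-rich tail and often silence exons, and hnRNP D also speeds the decay of mRNAs with AU-rich elements. HNRNPDL (ENSG00000152795, chr4:82422565-82430462), the relative of hnRNP D, changed most. It had 4319.6 and 4346 normalized counts in NC and 2759 and 2805 in sh-IRF1, so that 64.2% was left (log2 fold change -0.64, SE 0.0412, adjusted p = 7.76e-18 from limma). HNRNPD itself lies next to it on the same strand (chr4:82352498-82374503) and fell only to 90.7%, from 6024.5 and 5594 to 5224 and 5317 (adjusted p = 0.00191). Both promoters hold the E-box shown above. The call for HNRNPD was lost without NC replicate 1 (adjusted p = 0.0942) and without sh-IRF1 replicate 1 (0.0503).

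The abundant silencers of the same group moved by amounts between those of this pair. HNRNPA2B1, which also sorts RNA for transport, had 16551 and 15753 normalized counts in NC and 13243 and 13042 in sh-IRF1 (81.4%, adjusted p = 1.94e-12). HNRNPA1, the best known antagonist of SRSF1, had 18721 and 18446 in NC and 16127 and 16186 in sh-IRF1 (86.9%, adjusted p = 7.70e-09). Neither gene had overlapping groups. HNRNPA1 has 76 annotated pseudogenes and named copies, of which 20 are in the table, and their counts came to 2.40% of its own. Adding them left its log2 fold change at -0.20. Copies were fewer elsewhere in the set. Their counts were 1.55% of the gene's own for HNRNPK, 1.37% for HNRNPC, 1.34% for HNRNPL and 0.708% for HNRNPA3. Adding the counts of copies changed no call among the 41 genes. That step used only reads counted for a named copy. It cannot show the part of reads left uncounted because they match a gene and its copy alike.

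HNRNPA3, a close relative of HNRNPA1, had 8103 and 7970.4 normalized counts in NC and 7056 and 7016 in sh-IRF1 (87.6%, adjusted p = 2.85e-06). HNRNPA3 and HNRNPD are among the genes that the study displays from these libraries, so their values here are not independent of that choice. Its exonic bases are shared to 53.6% with NFE2L2 on the opposite strand, whose own level was higher in sh-IRF1 (1983 and 2011 against 2187 and 2230.0). HNRNPA0, which binds AU-rich elements, and HNRNPAB fell to 84.1% and 84.4% of the NC level.

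All 4 genes of the F/H group were lower, and their median log2 fold change was -0.30. These hnRNPs bind runs of G. HNRNPH2 (ENSG00000126945, chrX:101408222-101414133) had 1075 and 1034 normalized counts in NC and 698 and 654 in sh-IRF1. The groups were well separated, and 64.1% was left (log2 fold change -0.64, SE 0.0753, adjusted p = 9.33e-10 from limma). HNRNPH3 fell to 72.9%, from 1860 and 1809 to 1409 and 1265 (adjusted p = 8.25e-09).

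The more abundant genes of this group changed less. HNRNPF went from 7532 and 7430.2 to 6866 and 6793, which is 91.3%. HNRNPH1 went from 6636 and 6554 to 5719 and 6282, which is 91.0% (adjusted p = 0.00198). The sh-IRF1 libraries of HNRNPH1 stood apart from each other, and without sh-IRF1 replicate 1 its log2 fold change was -0.070 (adjusted p = 0.242).

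In the KH domain group, which binds C-rich RNA, 2 of 3 genes were lower. HNRNPK, a regulator of both transcription and translation, had 14061 and 13726 normalized counts in NC and 11246 and 11393 in sh-IRF1 (81.5%, adjusted p = 2.94e-12 from limma). PCBP2, which stabilizes several mRNAs, had 3063 and 2888 in NC and 2322 and 2231 in sh-IRF1 (76.5%, adjusted p = 2.16e-09). Both separated cleanly by group. PCBP1, an intronless relative of PCBP2, did not, with 5527 and 5427 in NC against 5416 and 5583 in sh-IRF1. Its log2 fold change was 0.0059 (95% interval -0.066 to 0.078, adjusted p = 0.915). PCBP1-AS1 covers 73.2% of its exon, with counts that came to 1.94% of those of PCBP1.

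The PTB and hnRNP L group was mixed in direction, with 1 gene lower, 1 higher and 2 not called, and a median log2 fold change of 0.046. PTBP1 represses exons through pyrimidine-rich tracts and is one of the most abundant genes of the set. It had 14641 and 14770.0 normalized counts in NC and 14778 and 14886 in sh-IRF1. Its log2 fold change was 0.012, with a 95% interval from -0.042 to 0.066 (adjusted p = 0.747 from limma). That interval does not reach the set's median of -0.24.

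PTBP3, the family member known from blood cells, was higher, with 8336 and 8791 normalized counts in NC and 9354 and 9185 in sh-IRF1 (108%, log2 fold change 0.11, adjusted p = 0.00283). That call was lost without NC replicate 1 (adjusted p = 0.0662) and without sh-IRF1 replicate 1 (0.0735). HNRNPL, which binds CA repeats, had 5312 and 5754 in NC and 5825 and 5852 in sh-IRF1 (log2 fold change 0.079, adjusted p = 0.0831). Without NC replicate 2 it was 0.14 (adjusted p = 0.00375). HNRNPLL, its relative that controls the splicing of CD45 in lymphocytes, went the other way, from 1786 and 1894 to 1412 and 1383 (75.9%, adjusted p = 9.39e-08).

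Of the 7 genes in the hnRNP C, M, R, Q and U group, 6 were lower and HNRNPUL1 had no call, with a median log2 fold change of -0.17. SYNCRIP (ENSG00000135316, chr6:85607779-85644063), also named hnRNP Q, takes part in splicing, translation and mRNA stability, and had the smallest p of all 41 genes. It had 9433 and 9131 normalized counts in NC and 6307 in both sh-IRF1 libraries. The groups were far apart and 67.9% was left (log2 fold change -0.56, SE 0.0324, adjusted p = 1.89e-19 from limma). HNRNPR, its closest relative, fell to 88.6%, from 4358 and 3986 to 3709 and 3681 (adjusted p = 0.000612, and 0.0587 without NC replicate 1).

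HNRNPC, which binds U tracts and keeps cryptic exons silent, had 14706 and 14751 normalized counts in NC and 12499 and 11942 in sh-IRF1 (83.0%, adjusted p = 4.48e-11). HNRNPUL2 fell to 74.8%, from 1399 and 1409 to 1083 and 1017 (adjusted p = 3.63e-07), and an annotated readthrough into BSCL2 covers 44.3% of its exons. HNRNPU, a scaffold protein of chromatin and the most counted gene of the set, had 23510.0 and 22815 in NC and 20952 and 21415 in sh-IRF1 (91.5%, adjusted p = 2.89e-05). All 3 genes had groups that did not overlap. HNRNPM, which binds GU-rich RNA, changed least of the called genes, with 11213 and 10653 in NC and 10273 and 10339 in sh-IRF1 (94.3%, adjusted p = 0.0207). Its adjusted p was 0.258, 0.145 and 0.109 without NC replicate 1, sh-IRF1 replicate 1 and sh-IRF1 replicate 2. HNRNPUL1 had 17189 and 16909 in NC and 16379 and 16567 in sh-IRF1, with a 95% interval of its log2 fold change from -0.10 to 0.0030 (adjusted p = 0.125).

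The 4 genes of 3' splice site recognition did not move together. SF3B1, the U2 protein that holds the branch point, had 7569 and 7590.4 normalized counts in NC and 6328 and 6228 in sh-IRF1 (82.8%, log2 fold change -0.27, adjusted p = 2.29e-09 from limma). U2AF2, which binds the pyrimidine tract ahead of the splice site, was higher, with 6975 and 6974 in NC and 7885 and 7785 in sh-IRF1 (112%, log2 fold change 0.17, adjusted p = 3.01e-05). Both were separated by group, in opposite directions.

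The remaining pair had few reads. ZRSR2, which serves the minor spliceosome, had 93.3 and 72.9 normalized counts in NC and 128 and 90.9 in sh-IRF1 (95% interval of the log2 fold change from -0.068 to 0.84, adjusted p = 0.170). AP1S2, on the opposite strand, covers 11.1% of its exons and had counts at 1186% of its own. U2AF1, the partner of U2AF2 that reads the AG at the splice site, had 105 and 84.2 in NC and 83.6 and 104 in sh-IRF1 (95% interval -0.46 to 0.44). GRCh38 holds a copy of U2AF1 (LOC102724594, chr21:6484623-6499248) that aligned at 99.8% identity over 99.9% of the gene (chr21:43092956-43107578). Reads from either locus cannot be told apart by such sequence, so the level of U2AF1 is uncertain, and for both genes the interval leaves room for changes larger than most in the set.

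The balance of close relatives was followed in 14 fixed pairs, as the log2 ratio of both genes in each library. An exact two-sided permutation test of 2 against 2 libraries cannot give a p below 0.333, so these ratios are descriptions. The groups did not overlap for 13 pairs, but with 2 libraries a group this is common, and single genes did not overlap in 35.0% of cases below and 34.2% above NC over all genes tested. The log2 ratio of HNRNPH1 to HNRNPH2 was 2.62 and 2.66 in NC and 3.03 and 3.26 in sh-IRF1. That of HNRNPD to HNRNPDL rose from 0.48 and 0.36 to 0.92 in both sh-IRF1 libraries, and that of HNRNPL to HNRNPLL from 1.57 and 1.60 to 2.04 and 2.08. In each of these pairs the less counted gene had the lower fold change.

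PCBP1 against PCBP2, HNRNPR against SYNCRIP and HNRNPUL1 against HNRNPUL2 shifted by 0.39, 0.38 and 0.37 on the log2 scale. The SRSF1 to SRSF9 ratio moved the other way, from 0.34 and 0.55 in NC to 0 and -0.13 in sh-IRF1, so that SRSF1 no longer had more counts than SRSF9. The HNRNPA1 to HNRNPA3 ratio, counted among the 13, differed by just -0.010, and the HNRNPH1 to HNRNPF ratio overlapped.

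**Figure D3:**
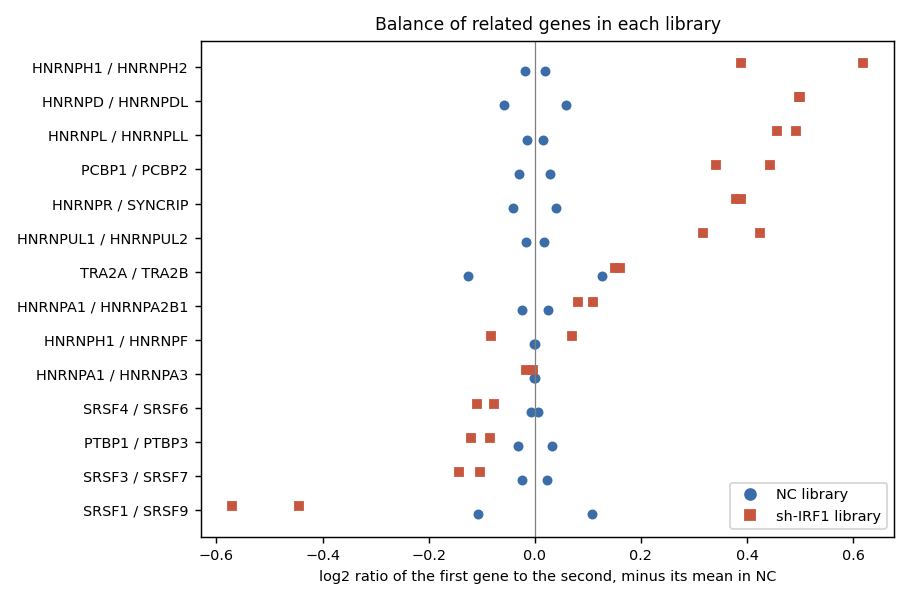
Log2 ratio of the first to the second gene of each of 14 fixed pairs in each library, minus its mean in NC. Circles are NC libraries and squares are sh-IRF1 libraries, and the largest shifts are 0.50 for HNRNPH1 to HNRNPH2 and -0.51 for SRSF1 to SRSF9.

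Levels of different genes were compared as normalized counts per kilobase of the canonical transcript. In NC the order began with HNRNPA1 (4963), HNRNPK (4809), HNRNPC (4654), PTBP1 (4587) and HNRNPA2B1 (4452). In sh-IRF1 PTBP1 stood first (4626), ahead of HNRNPA1 (4315) and HNRNPUL1 (4197). SYNCRIP went from place 9 (3370.4) to place 15 (2290.2), and U2AF2 from place 11 (3250.1) to place 7 (3651). SRSF2 (2517) and SRSF3 (2283) led the SR proteins in NC, and SRSF1 (438) was the lowest of them. ZRSR2 (56.2) and U2AF1 (99.9) were at the bottom in both groups. The place of U2AF1 is uncertain, because its reads cannot be told apart from those of its copy. Gene lengths were those of the annotation, so neighbours in this order may change places where another transcript is in use.

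Some reads cannot be placed with certainty. For 13 of the 41 genes over 10% of the exonic bases lie under another annotated gene, and the use of strand in counting is not stated. Beside those already named, SYNCRIP shares 27.1% and SRSF6 13.4% with unnamed genes. PCBP2 shares 18.8% with MAP3K12 and 13.8% with an unnamed gene on its own strand. HNRNPH2 shares 15.8% with a readthrough from RPL36A and HNRNPU 15.6% with COX20. HNRNPA2B1 shares 12.5%, of which 9.57% lies under NFE2L3 and 2.92% under CBX3. The counts of these neighbours differed widely. MAP3K12 and COX20 had counts of 2.65% and 0.0871% of those of PCBP2 and HNRNPU, whereas NFE2L2 had 27.9% of HNRNPA3, GATC 21.5% of SRSF9 and CBX3 30.1% of HNRNPA2B1. CBX3 was lower in both sh-IRF1 libraries (5046 and 4807 against 4026 and 3730.1). TGFB1 had counts of 68.7% of HNRNPUL1 but lies under just 3.21% of its exons. The part of such reads in the results was not tested.

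As a share of all reads assigned to genes, the 12 SR proteins together took 0.248% and 0.245% of the NC libraries and 0.200% and 0.199% of the sh-IRF1 libraries. That is 80.9% of the NC share. The 25 hnRNP, PTB and PCBP genes took 1.21% and 1.18% in NC and 1.09% in both sh-IRF1 libraries, 91.4% of the NC share. In both families the library shares did not overlap between groups.

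**Figure D4:**
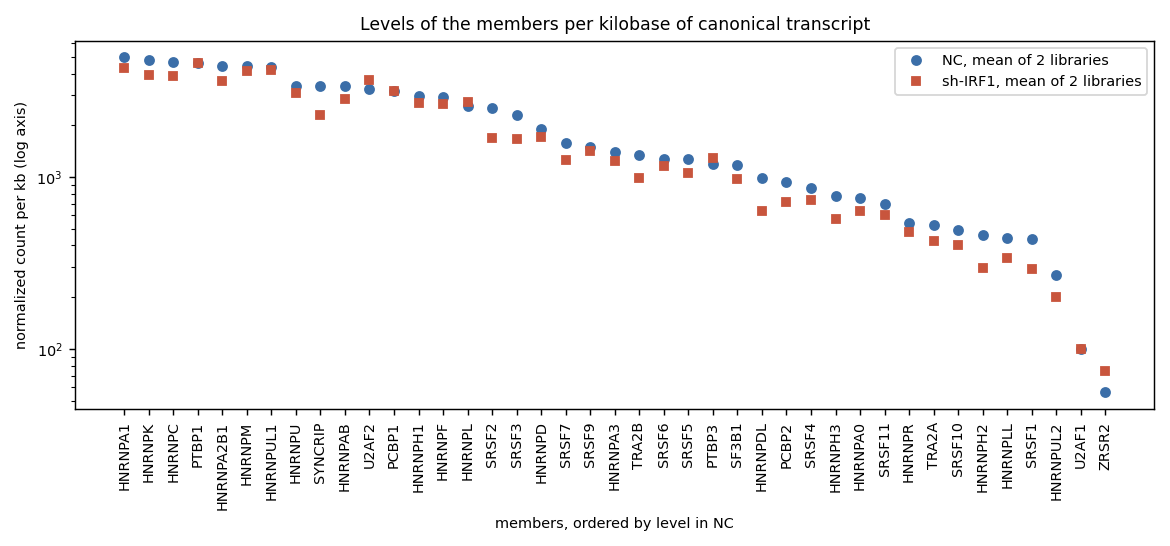
Normalized count per kilobase of canonical transcript (log axis) of each of the 41 genes, as the mean of 2 libraries, in the order of the NC level. Circles are NC and squares are sh-IRF1, and PTBP1 goes from place 4 in NC to place 1 in sh-IRF1.

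Other genes of the splicing pathway were looked up in lists written from general knowledge. Over the 10 lists of partners and core components, 47 of 126 tested genes were lower (37.3%) and 16 were higher (12.7%). Over all genes tested the shares were 21.9% and 20.3%. Of the 93 pathway genes with a mean of at least 1000, 41 (44.1%) were lower and 14 (15.1%) higher, beside 38.6% and 28.1% of all genes of that level. Of the 8 kinases that phosphorylate SR proteins, 2 were lower and 0 higher. SRPK1, which primes SR proteins for import, had 2517 and 2448 normalized counts in NC and 2101 and 2103 in sh-IRF1 (adjusted p = 5.55e-05 from limma). Of the 3 transportins 1 was lower and 2 were higher. TNPO1, an importer of HNRNPA1 and its relatives, was lower (4622 and 4839 against 3759 and 3752, adjusted p = 9.66e-10), whereas TNPO2 (2547 and 2617 against 3033 and 3107, adjusted p = 8.49e-06) and TNPO3, the importer of SR proteins (3048 and 2889 against 3594 and 3376), were higher.

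Among 17 SR-related proteins 9 were lower and 0 higher. RBM25, which acts on alternative splice sites with U1, led them (2942 and 2878 in NC, 2196 and 2308 in sh-IRF1, log2 fold change -0.37, adjusted p = 5.52e-09). Of 23 other splicing regulators 12 were lower and 2 higher. Both lists stand beside 21.9% lower and 20.3% higher of all genes tested. Of genes with a mean of at least 1000, 38.6% were lower and 28.1% higher. MBNL1, a regulator of developmental splicing, went from 12681 and 12919 to 9012 and 8711 (log2 fold change -0.53, adjusted p = 5.35e-20). RBM10, a repressor of exon inclusion, went from 1869 and 1940.2 to 2162 and 2223 (log2 fold change 0.20, adjusted p = 0.000957). MATR3 had a mean of just 18.5 normalized counts in NC and is listed under a second identifier, so its value is uncertain.

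The core spliceosome came next. Over all genes tested 21.9% were lower and 20.3% higher, and of those with a mean of at least 1000, 38.6% and 28.1%. The lists below are small, and their lower counts lie near the share of 38.6% or under it. Of 10 U1 and Sm proteins 4 were lower and 0 higher, led by SNRPA (log2 fold change -0.28, adjusted p = 5.29e-07). Of 13 genes in the U2 list 4 were lower and 0 higher, led by SF1 (-0.23, adjusted p = 1.47e-08). SF1 binds the branch point but is not itself part of the U2 particle. Among the U2 proteins proper SF3B3 led (-0.22, adjusted p = 5.64e-07 from limma). The U1 and Sm count became 7 without NC replicate 2. In the tri-snRNP 3 of 14 were lower, led by USP39 (-0.26, adjusted p = 0.000164), and 3 were higher, led by SART1 (0.31, adjusted p = 2.15e-05). In the PRP19 complex and its activation factors 7 of 16 were lower, led by PRPF19 (-0.31, adjusted p = 3.13e-10), and 2 were higher, led by CDC5L (0.19, adjusted p = 0.00657, and 0.0720 without sh-IRF1 replicate 2).

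Nonsense-mediated decay removes the unproductive transcripts of many SR genes. Together with the exon junction complex, 6 of its 15 genes were higher and 2 lower, beside 20.3% and 21.9% of all genes tested. The count is small and depended on 1 library, since without sh-IRF1 replicate 1 the calls went from 8 to 4. UPF2, a core decay factor, had 1232 and 1288 normalized counts in NC and 1678 and 1538 in sh-IRF1 (log2 fold change 0.35, adjusted p = 4.57e-06). EIF4A3, the anchor of the exon junction complex, had 3350.2 and 3535 in NC and 2822 and 2983 in sh-IRF1 (-0.25, adjusted p = 8.65e-06).

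Arginine methyltransferases modify the glycine-rich tails of hnRNPs and Sm proteins. Of 7 genes in their list 3 were lower and 1 higher, beside 21.9% and 20.3% of all genes tested. CARM1 fell from 3129 and 3119 to 2072 and 2097 normalized counts (log2 fold change -0.58, adjusted p = 7.42e-15). PRMT6 was higher (0.25, adjusted p = 0.0175), a call that was lost in 4 of 15 alternatives, without 3 of the libraries in turn (adjusted p 0.0692 to 0.0963) and with DESeq2 (0.0504). Of 7 tested relatives outside the set, RBMX, an hnRNP gene on the X chromosome, and PCBP4 were lower and SRSF8 was higher. RBMX had 4775 and 4776 in NC and 3634 and 3555 in sh-IRF1 (log2 fold change -0.41), and SRSF8, a retrogene related to SRSF2, 661 and 694 against 881 and 854 (0.36).

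The libraries held between 17635908 and 18695337 reads, and mitochondrial genes took 4.21% and 4.51% of NC and 3.99% and 3.92% of sh-IRF1. IRF1 (ENSG00000125347), the targeted gene, had 785 and 739 normalized counts in NC and 430 and 432 in sh-IRF1 (56.6%, adjusted p = 1.69e-10 from limma). All 8 myeloid markers were in the table, with sums of 36280 and 36287 in NC and 32668 and 32860 in sh-IRF1. LYZ, ITGAM and SPI1 were higher, and MPO, FLT3, CEBPA and CSF1R lower. T cell and erythroid markers were not in the table, and the B cell and epithelial lists summed to at most 289 and 392 normalized counts, with CD79A (46.7 to 220, adjusted p = 4.46e-12) and KRT8 higher in sh-IRF1 and EPCAM and CDH1 not in the table. The part of these shifts in the results above was not tested.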

How the data were processed

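MV4-11 RNA was prepared with Trizol, converted with a TruSeq RNA kit and sequenced by a service company. Per the submitters' processing notes, reads were mapped with HISAT2 2.0.5 to hg38. The counting tool, annotation and strand setting are not given in the sources used here. The deposited values are a normalized signal, reads divided by 1 size factor per library, and 100% were whole multiples of the value of 1 read (tolerance 0.001 reads). The table held 0 other columns of per-sample values. Symbols matched 23456 of 23622 identifiers.

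limma 3.58.1 (R 4.3.3) was run on log2(value + 1), with trend and robust shrinkage, over the 14120 genes that reached 10 in 2 or more libraries. P-values were Benjamini-Hochberg adjusted over all of them, and the threshold was 0.05. The pseudocount understates changes of genes with few reads. Replicates differed by more than sampling noise (chi-square per gene of 2.52 in NC and 2.37 in sh-IRF1 for 20 to 5000 reads, and of 5.99 and 3.17 above 5000 reads, where most members lie). The spread of a gene rests on 42.98 prior degrees of freedom shared across genes. Scripts were tested on simulated data. Alternatives covered scaling, filter, pseudocount, shrinkage, block, edgeR 4.0.16, DESeq2 1.42.0, fold limit, copies and libraries left out. The U2AF1 copy was aligned with blastn 2.17.0.

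The members, lists and pairs were chosen with earlier results of these data known. All 41 members were named, with library values for the leading genes of each role, the recurrently mutated genes and the pairs, and each list gave its gene with the smallest p per direction. MYC, the genes that overlap members, MATR3, TNPO3 and the cell type markers with values were added to these names, TNPO3 and MYC after their values were seen. Protein sequences were not used here.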

Additional observations from a re-analysis of the deposited data

How the results depend on the processing

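Of the 34 called members, 27 kept their call and direction in all 15 alternatives, and no value of a called gene reversed. For the 41 members, each call lost or gained came from leaving out 1 library and is given with its gene above. The number of members lower ranged from 28 to 33 and the number higher from 1 to 3 when each library was left out in turn. It was 1 higher without NC replicate 1 and 1 without sh-IRF1 replicate 1, where fewer samples were tested and PTBP3 was no longer called. With a log2 fold change beyond 1 in place of 0.5, 0 members and 318 of all genes were called lower and 389 of all genes higher. Leaving out each library in turn, the U1 and Sm list had 4 to 7 calls and the exon junction and decay list 4 to 8. Counts in the pathway lists also moved with the test: under DESeq2 the PRP19 list had 6 calls in place of 9, the exon junction and decay list 6 in place of 8, the SR-related list 8 in place of 9 and the U1 and Sm list 3 in place of 4. The replicate numbers did not pair the libraries: the correlation of deviations of same-numbered libraries was -0.015 over 14120 genes and 0.011 over the 9987 with a mean of at least 100. With the replicate number as a block, 32 members were lower and 2 higher, as without it, the U1 and Sm list had 7 calls and the tri-snRNP list 8 in place of 6. The median of all genes stayed within 0.0046 of 0 under each scaling, but these scalings all centre the typical gene by design. Scaling by library totals alone was not run. With 2 libraries a group, the spread of any gene taken alone is poorly known. ZRSR2 and U2AF1 had standard errors of 0.224 and 0.221, too large to call a change near the set's median of -0.24. The 95% interval of ZRSR2, from -0.068 to 0.84, does not reach that median. For U2AF1 the interval, from -0.46 to 0.44, includes it. Reads of U2AF1 and its copy cannot be told apart, so its low count cannot be put down to depth alone.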
